A study of Mus musculus with 36 samples.

Results

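T lymphocytes and natural killer (NK) cells of the mouse lung were followed through 39 of the 46078 genes in the count table. The 39 genes were taken from a list of names, each found by gene name and Ensembl identifier, and the rule that finds them uses no measured value. That list was drawn up with earlier results of these data known, so shares of members set beside all genes are descriptions. Cd28, Icos and Ctla4 each have another copy on an alternate scaffold, which held 0 counts. All 39 passed the filter on low counts and so belong to the 16903 genes that were tested. They fall into 8 roles: the CD3 complex and zeta chain (4 genes), surface coreceptors and adhesion (6), costimulation and regulatory T cells (5), receptor-proximal signalling (4), T lineage factors and naive-cell receptors (6), NK and cytokine receptors (5), the cytotoxic granule (4), and effector factors, chemokines and interferon (5).

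T cells recognise peptides through an antigen receptor that signals through the CD3 chains, with CD4 or CD8 as coreceptor and CD28 as costimulator. NK cells lack that receptor and act through the balance of activating and inhibitory surface receptors. Both NK cells and cytotoxic T cells kill with perforin and granzymes stored in granules and secrete interferon gamma. In the healthy lung both circulate in the capillaries, and some T cells reside in the tissue.

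The lungs came from female C57BL/6 mice, an inbred laboratory strain, with no engineered allele in the labels. Each mouse had received 1 intranasal instillation, either of the carrier alone (5% dextrose, group D, 0 μg) or of 50 μg of graphene oxide sheets in that carrier. Graphene oxide is the oxidised form of the carbon sheet graphene, and the sheets were ultrasmall (US), small (S) or large (L) in lateral size, the property whose influence the study asked about. Tissue was taken at day 1, 7 or 28, at about 9, 10 and 13 weeks of age, which gave 12 groups of 3 libraries (36 in all, n = 3 throughout). A piece of each lobe was used after the large airways had been removed, without flushing or sorting of cells being mentioned in the labels. Groups held 4 to 5 animals, and which animal a library came from is not in the labels, so the p-values measure only the spread between these samples, which may be technical.

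Library totals were 16154696 to 23808264 counts in 35 libraries and 80566751 in S day 7 replicate 2. Levels are CPM, a gene's count scaled to the library total, when 1 gene is followed across libraries, and the deposited TPM, which is scaled by transcript length, when genes are set side by side. Fold changes are log2 values fitted with edgeR, and a gene counts as called at a Benjamini-Hochberg adjusted p under 0.05 over the 16903 genes. Markers of thymus were low: Rag2, Ptcra, Psmb11 and Foxn1 were listed at 0 in 25, 28, 31 and 32 of 36 libraries, Rag1, Dntt and Prss16 reached 1.43, 1.86 and 1.02 TPM, and Ccl25 ran from 3.00 to 8.04 TPM. The 8 thymus markers summed to at most 9.63 TPM in a library. Of 7 lymph node markers, Glycam1 was at 0 in 29 and Madcam1 in 27 libraries, while Chst4 (4.97 to 16.1 TPM), Fcer2a (9.37 to 33.5), Cxcl13, Cr2 and Ccl19 were detected in every library.

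Several libraries stood apart in the members. As a summary for each library, a score was taken as the mean over the members of log2 CPM minus that gene's mean over all 36 libraries, and it is a description with no test. The score was -0.01, 0.11 and -0.05 in D, -1.46, -0.06 and -0.35 in US, -0.08, -0.85 and -0.81 in S and -0.41, -0.72 and 0.33 in L at day 1. The first US library at day 1 was the lowest of the 36 for most members, and it also had the highest neutrophil score of its group (2.45, 0.17 and 0.75). At day 28 the score was -0.04, -0.11 and 0.25 in D and 0.19, 0.05 and 0.85 in US, so that the third US library stood above all others. In D at day 28, the third library stood apart in gamma-delta T cell markers, with Trdc, the constant chain of their receptor, at 4.10, 4.73 and 22.9 CPM. The medians and calls against D that rest on these libraries are given with and without them.

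**Figure D1:**
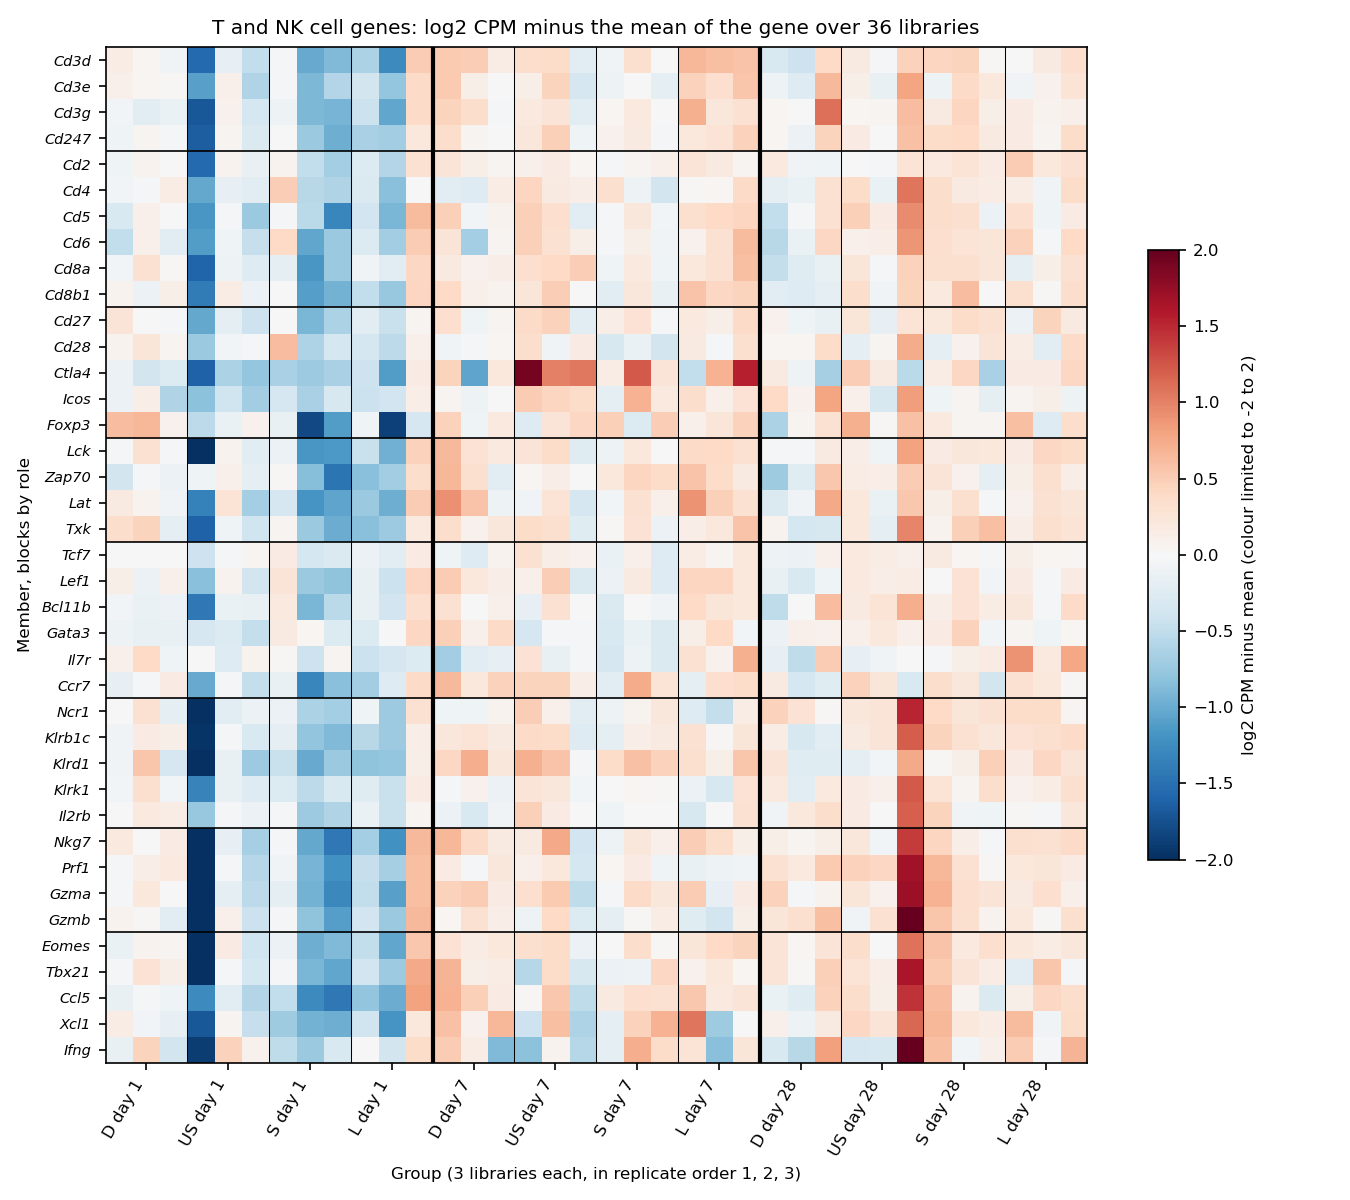
Colour gives the log2 CPM of each of the 39 genes (rows, in blocks by role) minus that gene's mean over all 36 libraries, and columns are libraries ordered by day and material. The first US library at day 1 is low in nearly every row, replicates 2 and 3 of S at day 1 are low in many, and the third US library at day 28 is high in the rows of NK receptors, granule and effector genes.

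Per transcript length, the most abundant member was Gzma, which encodes the granule protease granzyme A, at 99.3 ± 44.0 TPM (mean ± SD over 36 libraries). It ranged from 10.8 TPM in US day 1 replicate 1 to 301 TPM in US day 28 replicate 3. The chemokine gene Ccl5 followed at 82.3 ± 32.5 TPM. Both were measured in the same libraries, so these SDs do not give the error of their difference, which was not tested. Gzma lay above Ccl5 in most libraries, though not in US day 1 replicate 1 (10.8 against 31.1 TPM). Tcf7, a transcription factor of naive and memory T cells, Cd2, an adhesion receptor of T and NK cells, and Nkg7, a granule membrane protein, had mean TPM of 36.7 ± 4.92, 36.7 ± 6.49 and 36.4 ± 13.7. These means lie close together, and their order was not tested. The highest mean TPM in the other roles was that of Cd3g among the CD3 chains (25.4 ± 7.67), Lck among signalling genes (23.0 ± 6.02), Klrd1 among NK receptors (22.7 ± 7.21) and Cd27 among costimulatory genes (8.82 ± 2.04). At the other end stood Ifng at 1.17 ± 1.25 TPM and Foxp3 at 0.415 ± 0.154 TPM. Foxp3, the factor that defines regulatory T cells, rested on 3 to 55 counts in a library, so its values carry a large counting error. For 24 of the 39 genes the highest CPM was in US day 28 replicate 3, and for 32 the lowest was in US day 1 replicate 1.

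The promoters of 6 members are shown to set genes of the cytotoxic granule, the role with the lowest median with US at day 1, beside genes that define T cells: 4 granule genes, and 2 genes of the CD3 complex that lie beside each other on chromosome 9 (Cd3d at chr9:44981793-44987052, plus strand, and Cd3e at chr9:44998743-45009590, minus strand, GRCm38). Each runs from 250 bases before to 50 bases after the annotated start, 5′ to 3′ on the strand of the gene, and comes from RefSeq on GRCm38.p6, where 29 of the 39 genes had an entry. Capitals mark matches, on either strand and possibly overlapping, to 4 short motifs of factors known from T and NK cells: TGTGGT (RUNX), AGGAAG (ETS), TCACAC (T-box) and CTTTGA (TCF/LEF).
Gzma (chr13:113100932-113101231, minus strand): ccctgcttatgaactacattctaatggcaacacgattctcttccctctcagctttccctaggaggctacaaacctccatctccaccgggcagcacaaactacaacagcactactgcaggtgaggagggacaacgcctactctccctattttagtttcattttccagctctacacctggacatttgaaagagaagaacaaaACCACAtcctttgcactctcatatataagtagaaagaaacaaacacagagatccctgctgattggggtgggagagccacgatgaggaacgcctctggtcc
Gzmb (chr14:56262285-56262584, minus strand): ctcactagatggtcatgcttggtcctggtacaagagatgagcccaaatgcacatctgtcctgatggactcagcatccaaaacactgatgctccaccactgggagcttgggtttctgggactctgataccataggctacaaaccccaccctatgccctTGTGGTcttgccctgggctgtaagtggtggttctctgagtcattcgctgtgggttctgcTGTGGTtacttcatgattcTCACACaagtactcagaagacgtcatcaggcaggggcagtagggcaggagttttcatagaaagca
Prf1 (chr10:61297586-61297885, plus strand): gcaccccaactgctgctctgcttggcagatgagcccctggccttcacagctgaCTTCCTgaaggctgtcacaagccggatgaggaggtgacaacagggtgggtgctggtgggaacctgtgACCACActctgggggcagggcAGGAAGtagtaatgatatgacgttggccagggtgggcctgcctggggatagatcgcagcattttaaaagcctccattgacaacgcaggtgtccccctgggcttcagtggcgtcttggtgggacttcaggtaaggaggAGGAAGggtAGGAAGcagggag
Nkg7 (chr7:43436888-43437187, plus strand): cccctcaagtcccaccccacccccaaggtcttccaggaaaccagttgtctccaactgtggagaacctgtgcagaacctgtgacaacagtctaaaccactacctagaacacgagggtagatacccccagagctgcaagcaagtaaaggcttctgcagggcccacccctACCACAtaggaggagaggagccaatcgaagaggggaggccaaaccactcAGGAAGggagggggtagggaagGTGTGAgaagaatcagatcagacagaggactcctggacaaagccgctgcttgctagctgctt
Cd3d (chr9:44981536-44981835, plus strand): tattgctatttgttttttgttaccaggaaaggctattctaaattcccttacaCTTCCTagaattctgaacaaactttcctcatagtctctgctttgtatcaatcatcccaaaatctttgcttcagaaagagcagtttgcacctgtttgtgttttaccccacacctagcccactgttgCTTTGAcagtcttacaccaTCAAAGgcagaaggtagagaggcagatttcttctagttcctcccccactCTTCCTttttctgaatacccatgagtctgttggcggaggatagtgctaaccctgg
Cd3e (chr9:45009562-45009861, minus strand): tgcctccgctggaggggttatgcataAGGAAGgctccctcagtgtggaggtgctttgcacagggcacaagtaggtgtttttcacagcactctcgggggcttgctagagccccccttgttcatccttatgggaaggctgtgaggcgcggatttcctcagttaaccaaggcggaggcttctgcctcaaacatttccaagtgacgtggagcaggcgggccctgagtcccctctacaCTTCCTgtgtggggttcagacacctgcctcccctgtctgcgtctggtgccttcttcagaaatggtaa

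Each of the 4 granule promoters held a RUNX match, and neither CD3 promoter did. Gzmb carried 2 RUNX matches and 1 T-box match, and Prf1 carried 4 ETS matches beside 1 for RUNX. Cd3d held 2 matches each for ETS and TCF/LEF, and Cd3e held 2 for ETS. The RUNX letters were found in 16.8% of all 32851 promoters of this length and in 14 of the 39 promoters of the 29 genes (35.9%), 7 of which have more than 1 annotated start. For ETS, T-box and TCF/LEF the shares were 35.4%, 14.5% and 16% of all promoters, and 20, 10 and 9 of the 39 member promoters (51.3%, 25.6% and 23.1%). These are matches of letters in a window, with no measurement of binding in these data.

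One day after instillation, nearly all T and NK cell genes had a negative fold change in lungs given US or S sheets, and no single gene passed the test. With US sheets 38 of the 39 members had a negative log2 fold change against D (median -0.52), with S sheets also 38 (median -0.55), and with L sheets 35 (median -0.19), beside medians over all tested genes of 0.01, -0.02 and 0.01. Zap70 was the member on the other side with US and Gata3 with S. In bulk tissue, fewer cells of a type and less RNA per cell cannot be told apart. The 3 contrasts share the same D libraries.

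By edgeR's adjusted p, 0 of 39 members were called with US, S or L, where 0.0887%, 0.0473% and 0.0237% of all tested genes were. At an unadjusted p under 0.05, 9 members were lower with US (23.1% of the members, against 6.76% of all genes), 12 with S (30.8% against 9.7%) and 2 with L (5.13% against 2.08%). DESeq2 gave 0 calls and 9, 13 and 2 at an unadjusted p, and limma on TPM 0 calls and 16, 8 and 0. All 3 exposed libraries lay below all 3 D libraries for 16 members with US (41%, against 10.4% of all genes), 17 with S (43.6% against 19.8%) and 2 with L (5.13% against 6.66%). For US and S the members' shares were thus above those over all genes, by both measures, and for L they were not by the second. Because the members were chosen with earlier results of these data known, these shares are a description and no test of the set.

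Granule genes had the lowest role median with US, at -0.86, and reached -0.78 with S and -0.19 with L. Gzma stood at 41.5, 51.3 and 42.5 CPM in the 3 D libraries, 4.74, 36.5 and 28.8 with US, 36.4, 21.4 and 16.9 with S and 29.7, 19.7 and 63.0 with L. All US and S libraries lay below the lowest D library, while the L libraries lay on both sides, the third being the highest of the day. The fitted log2 fold change of Gzma with US was -0.90 ± 0.45 (SE, 95% confidence interval -1.82 to 0.02, edgeR adjusted p = 0.319). Prf1, which encodes the pore protein perforin, was at 9.22, 10.7 and 10.8 CPM in D, 1.75, 9.10 and 6.19 with US and 8.82, 4.77 and 3.93 with S, again without overlap. Nkg7 showed the same separation, with 18.4, 16.8 and 17.9 CPM in D and 3.17, 14.1 and 9.81 with US.

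NK and cytokine receptors had role medians of -0.63, -0.54 and -0.28 with US, S and L. Klrd1 (CD94, the partner chain of NKG2 receptors, chr6:129591782-129598775, plus strand) had the smallest p of all members with US. Its level was 12.3, 20.0 and 10.2 CPM in D and 2.25, 11.5 and 7.65 with US, with 9.33, 6.23 and 7.55 with S and 7.20, 7.46 and 13.7 with L. The second US library overlapped D, and the 3 S libraries lay below D. The log2 fold change of Klrd1 was -0.93 ± 0.34 (SE, 95% confidence interval -1.63 to -0.23, edgeR adjusted p = 0.180) with US and -0.82 ± 0.34 (SE, edgeR adjusted p = 0.192) with S. Klrb1c, the NK1.1 antigen used to mark NK cells in this strain, was at 13.7, 16.8 and 15.4 CPM in D, 3.36, 13.9 and 11.3 with US and 12.2, 8.02 and 7.55 with S.

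Among surface and costimulatory receptors, Cd8a and Cd27 had the smallest p with US and with S. Cd8a, the alpha chain of the coreceptor of cytotoxic T cells (chr6:71373427-71379171, plus strand), was at 8.79, 11.8 and 9.18 CPM in D, 2.76, 8.42 and 7.50 with US, 7.85, 3.90 and 5.32 with S and 8.51, 7.71 and 12.0 with L. The US and S libraries all lay below D, and the L libraries spanned it. Its log2 fold change with S was -0.75 ± 0.25 (SE, 95% confidence interval -1.26 to -0.24, edgeR adjusted p = 0.157). Cd27, a costimulatory receptor of the TNF receptor family (chr6:125232622-125237010, minus strand), was at 7.80, 6.81 and 6.27 CPM in D and 2.94, 5.62 and 4.73 with US, without overlap, a log2 fold change of -0.59 ± 0.22 (SE, 95% confidence interval -1.05 to -0.14, edgeR adjusted p = 0.186). With S it was at 6.32, 3.31 and 4.04 CPM, where the first library overlapped D. Cd2, the most abundant surface gene, was at 20.5, 23.8 and 21.8 CPM in D and 6.90, 22.6 and 19.3 with US, and those groups overlapped.

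Foxp3 (chrX:7579676-7595243, plus strand) had the lowest log2 fold change of the members with both S and L, on few counts. Its counts were 21, 23 and 17 in D, 11, 14 and 17 with US, 14, 3 and 6 with S and 16, 3 and 12 with L, which is 0.713, 0.163 and 0.319 CPM with S and 0.748, 0.152 and 0.615 with L. Every exposed library was below every D library in CPM. The log2 fold change was -1.49 ± 0.43 (SE, 95% confidence interval -2.38 to -0.61, edgeR adjusted p = 0.144) with S and -1.16 ± 0.42 (SE, 95% confidence interval -2.01 to -0.31, edgeR adjusted p = 0.712) with L. Ctla4, the inhibitory receptor that regulatory T cells carry, was below D in each of the 3 US and 3 S libraries, and its log2 fold change was -0.75 with US and -0.45 with S.

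The CD3 chains and the signalling genes next to them had role medians with US of -0.48 and -0.53, and with S of -0.51 and -0.77. Cd3g, the most abundant CD3 chain, was at 12.4, 11.5 and 11.7 CPM in D, 3.68, 13.5 and 9.91 with US and 11.8, 6.67 and 6.59 with S, so both exposed groups overlapped D. Lck, the kinase that starts T cell receptor signalling, was at 22.6, 29.4 and 22.1 CPM in D and 20.8, 9.81 and 10.0 with S, which did not overlap, and its log2 fold change with S was -0.81 ± 0.34 (SE, edgeR adjusted p = 0.193). Lat, the adapter downstream of Zap70, had a log2 fold change of -0.87 ± 0.36 (SE, edgeR adjusted p = 0.190) with S. T lineage factors and naive-cell receptors had the role medians nearest to 0: -0.30 with US, -0.25 with S and -0.04 with L. Tcf7 was at 49.2, 51.1 and 49.3 CPM in D and 34.8, 48.1 and 50.4 with US, and the groups overlapped. Il7r, the receptor for the T cell survival factor interleukin 7 (chr15:9506161-9529876, minus strand), was at 24.3, 31.1 and 21.3 CPM in D and 16.5, 17.8 and 18.4 with L, without overlap, a log2 fold change of -0.49 ± 0.21 (SE, 95% confidence interval -0.91 to -0.07, edgeR adjusted p = 0.906).

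Effector genes had role medians of -0.57, -0.74 and -0.11 with US, S and L. Ccl5, a chemokine that T and NK cells secrete and the most abundant gene of this role, was at 19.8, 22.5 and 20.4 CPM in D, 8.37, 18.7 and 14.3 with US, 15.2, 8.72 and 7.87 with S and 12.3, 10.9 and 37.4 with L. All US and S libraries lay below D, and the L group held values below D as well as the highest of the day. Its log2 fold change with S was -0.93 ± 0.38 (SE, edgeR adjusted p = 0.190). Tbx21 (T-bet) and Eomes, the T-box factors of effector and NK cells, had log2 fold changes of -0.80 and -0.62 with US and -0.74 and -0.61 with S.

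**Figure D2:**
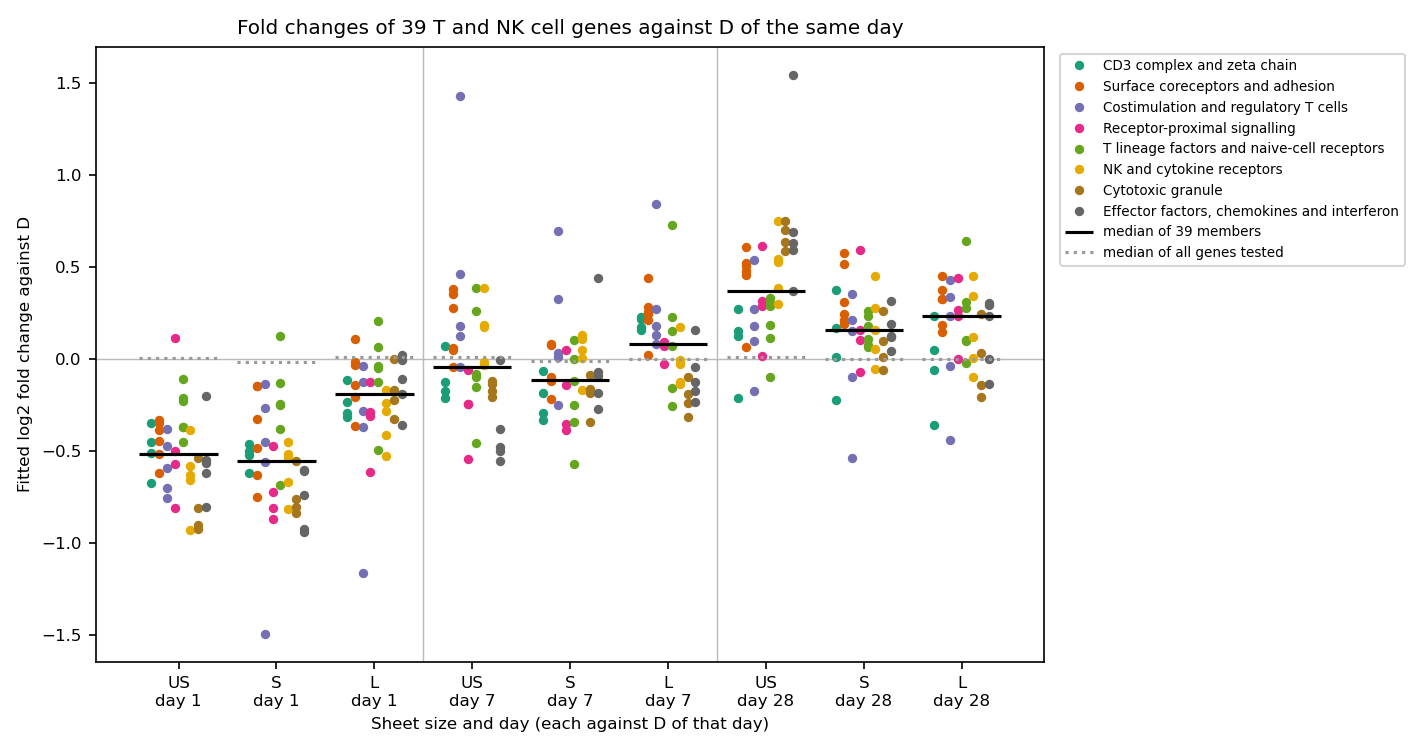
Points are fitted log2 fold changes against D of the same day for each of the 39 genes, grouped by role, with US, S and L side by side at days 1, 7 and 28. With US and S at day 1 the points lie almost all below 0, with the granule genes at -0.86 and -0.78 in the median, and with US at day 28 the points lie mostly above 0.

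Single libraries set the size of these differences. Without US day 1 replicate 1 the median over the members was -0.23 and 0 had an unadjusted p under 0.05, and without US day 1 replicate 2 it was -0.80, with 24 at an unadjusted p and 1 call (Klrd1, adjusted p = 0.0224). Without S day 1 replicate 1 the S median was -0.86, and 3 members were called (Cd27, Foxp3 and Cd8a). Without S day 1 replicate 2 or 3 edgeR called 0, with 1 and 2 at an unadjusted p. By role, the US medians without US day 1 replicate 1 ran from -0.40 for the granule genes to -0.15 for the surface genes. The L median was -0.09 without L day 1 replicate 1, 0.03 without L day 1 replicate 2 and -0.59 without L day 1 replicate 3. Among the controls, leaving out D day 1 replicate 1 or 2 left 4 and 2 members at an unadjusted p with US, and leaving out D day 1 replicate 2 left 7 with S. A fit of only the S and D groups of day 1 called 2 members.

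Other cell types differed in the same libraries. Of 7 neutrophil markers, 7 had a positive fold change with US, 6 at an unadjusted p, and Il1r2 was called (4.35 ± 0.85 SE, edgeR adjusted p = 0.0351), at 98.0, 3.22 and 6.94 CPM in the US libraries. Without US day 1 replicate 1, Il1r2 was not called (1.47, edgeR adjusted p = 0.602), and leaving out any 1 D library also ended its call. Without that US library all 7 markers stayed positive, 3 of them at an unadjusted p. Their summed level was 365 to 533 TPM in D, 506 to 1629 with US, 272 to 483 with S and 461 to 487 with L. The neutrophil score, which weights each marker alike, was -0.43, -0.26 and 0.11 in D. It was -0.72, 0.52 and 0.34 with S and 0.25, 0.41 and -0.01 with L. All US libraries, S replicates 2 and 3 and L replicates 1 and 2 lay above every D library in that score. Of 8 B and plasma cell markers, 7 had a negative fold change with US and 8 with S (medians -0.44 and -0.58, 2 and 4 at an unadjusted p), and their sum was 251 to 309 TPM in D, 90.0 to 272 with US, 139.4 to 261 with S and 239 to 337 with L. Without US day 1 replicate 1 the B and plasma cell median with US was -0.02, with 4 of 8 negative. The members' own sum was 573 to 661, 211 to 534, 329 to 579.6 and 373 to 729 TPM in the same order. Hbb-bs, Hba-a1 and Alas2, markers of red blood cells, summed to 4600 to 5953 TPM in D, 5271 to 6334 with US, 2288 to 7012 with S and 4806 to 11341 with L. The lowest S value and the highest L value were those of replicate 3, and the highest US value was that of US day 1 replicate 1. The score of 5 glucocorticoid-induced genes, the mean log2 CPM relative to all 36 libraries, was 0.25, 0.55 and 0.39 in D and 2.00, -0.28 and -0.04 with US. It was 0.60, 0.67 and 0.90 with S, all above D, and -0.06, 0.38 and 0.12 with L. Of 5 clock genes Npas2 was called lower with S (-1.65 ± 0.30 SE, edgeR adjusted p = 0.0262) and with L (-1.63 ± 0.30 SE, edgeR adjusted p = 0.0339). The Npas2 calls were lost without any 1 D library of day 1, at log2 fold changes of -1.62 to -1.69 with S. The part of these cell types and programmes in the day 1 values was not tested.

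**Figure D3:**
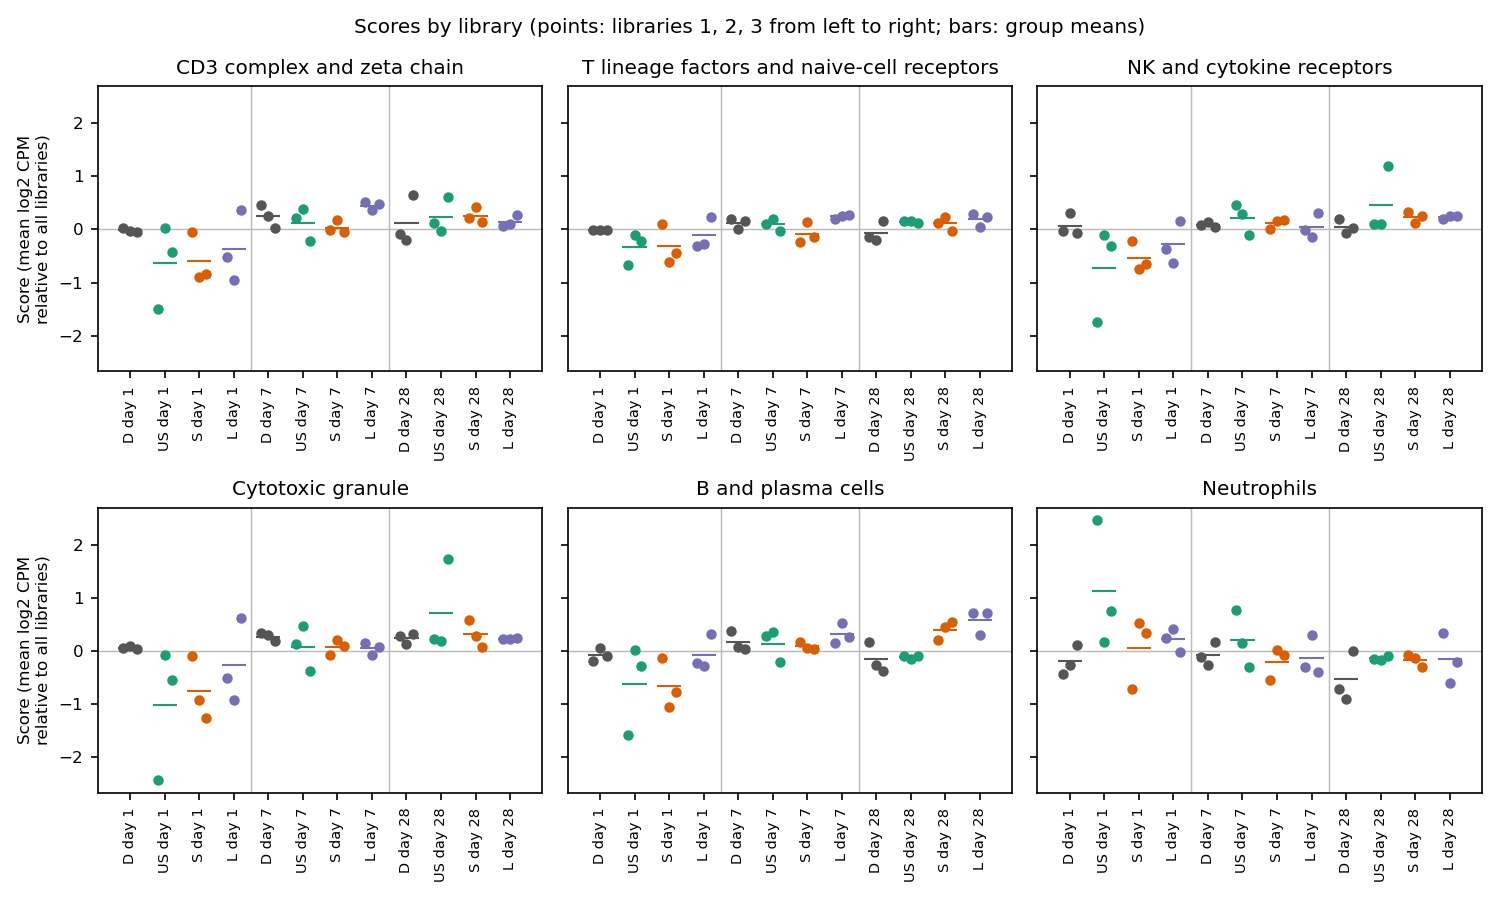
Each point is 1 library's mean log2 CPM relative to the mean of all 36 libraries, for CD3 genes, T lineage genes, NK receptors, granule genes, B and plasma cell markers and neutrophil markers, by group. US day 1 replicate 1 is lowest in the lymphocyte panels and highest in the neutrophil panel (2.45), and US day 28 replicate 3 is highest for granule genes (1.73).

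Genes of the same pathways outside the set were read from lists. Of 17 other NK and cytotoxic genes, 14 had a negative fold change with US at day 1 (median -0.77), 9 of them at an unadjusted p. Without US day 1 replicate 1 the median was -0.37, with 2 at an unadjusted p. With S and L the medians were -0.53 and -0.16, with 3 and 0 lower at an unadjusted p. Of 18 other T cell receptor signalling genes, 4 were lower and 1 higher at an unadjusted p with US (median -0.33, and -0.08 without that library), 3 lower with S (-0.24) and 2 lower with L (-0.21). None of these 35 was called by edgeR in any of the 9 comparisons with D.

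At day 7 the median over the members was near 0 with each size, and the members with the smallest p were Ctla4, Gata3 and Il7r. The members' median log2 fold change was -0.04 with US (15 positive, 24 negative), -0.12 with S (13 and 26) and 0.08 with L (24 and 15). With 1 library left out these medians ran from -0.13 to 0.07, -0.16 to -0.04 and 0.04 to 0.19. By edgeR's adjusted p 0 members were called, where 2.09%, 0.45% and 0.154% of all genes were with US, S and L. At an unadjusted p, 3, 1 and 1 members were below 0.05, against 25.7%, 9.33% and 4.87% of all genes, so the members' share was below the background in each comparison. DESeq2 called 1 with US (Ctla4, adjusted p = 0.0279), 1 with S (Gata3, adjusted p = 0.0416) and 0 with L, and limma called 0, with 6, 1 and 1 at an unadjusted p.

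Ctla4 (chr1:60887000-60915832, plus strand) was at 2.78, 0.914 and 2.38 CPM in D, 8.01, 4.29 and 4.28 with US, 2.36, 5.01 and 2.48 with S and 1.37, 3.36 and 6.48 with L. The 3 US libraries lay above all D libraries, while S and L each held libraries within the D range. The log2 fold change was 1.43 ± 0.43 (SE, 95% confidence interval 0.56 to 2.30, edgeR adjusted p = 0.0604) with US, 0.70 ± 0.42 (SE, edgeR adjusted p = 0.654) with S and 0.84 ± 0.43 (SE, edgeR adjusted p = 1.00) with L. Icos, a costimulatory receptor of activated T cells whose gene neighbours Ctla4, was at 3.76, 3.33 and 3.69 CPM in D and 5.31, 5.09 and 4.71 with US, without overlap, at a log2 fold change of 0.46 ± 0.25 (SE, edgeR adjusted p = 0.229). Foxp3 was at 1.16, 0.753 and 0.961 CPM in D and 0.687, 1.03 and 1.12 with US, and the groups overlapped. Without filter on low counts the edgeR adjusted p of Ctla4 with US was 0.0477. Without D day 7 replicate 3 it was 0.0415, and without US day 7 replicate 2 it was 0.0237. It was 0.247 and 0.195 without D day 7 replicates 1 and 2, and 0.259 and 0.246 without US day 7 replicates 1 and 3. A fit of only the US and D groups of day 7 gave an edgeR adjusted p of 0.172.

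Gata3, a T lineage factor that innate lymphoid cells also express (chr2:9857078-9890034, minus strand), was at 12.3, 9.36 and 11.7 CPM in D, 7.14, 8.92 and 8.60 with US, 7.49, 8.27 and 7.39 with S and 9.38, 11.8 and 8.99 with L. All US and S libraries lay below D, and L overlapped it. The log2 fold change was -0.46 ± 0.16 (SE, 95% confidence interval -0.78 to -0.14, edgeR adjusted p = 0.0843) with US and -0.57 ± 0.16 (SE, 95% confidence interval -0.89 to -0.25, edgeR adjusted p = 0.110) with S. Without US day 7 replicate 2 the US value was called (edgeR adjusted p = 0.0458). Without any other single library of these groups it was not called. The edgeR adjusted p then ran from 0.0958 (without D day 7 replicate 3) to 0.387 (without D day 7 replicate 1). The D libraries of day 7 stood above those of day 1, which had 8.23, 8.23 and 7.86 CPM, and all contrasts of day 7 share them. Il7r was at 14.0, 19.4 and 20.4 CPM in D and 27.4, 24.3 and 39.4 with L, where all L libraries lay above D, a log2 fold change of 0.73 ± 0.20 (SE, 95% confidence interval 0.31 to 1.15, edgeR adjusted p = 0.312).

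The clock genes Dbp, Per2, Per3, Npas2 and Arntl, whose transcripts follow the time of day, were called 5 of 5 with US and 5 of 5 with L at day 7 (3 higher and 2 lower in each) and 0 of 5 with S. Dbp was at 34.3, 30.8 and 8.90 CPM in D, 114.9, 102.6 and 131.9 with US and 24.4, 25.2 and 15.1 with S, and its log2 fold change with L was 2.54 ± 0.51 (SE, edgeR adjusted p = 0.0181). The part of this difference in the day 7 values of Ctla4, Gata3 and Il7r was not tested.

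At day 28 most members had a positive fold change with each size, and none was called. The median log2 fold change was 0.37 with US (36 of 39 positive), 0.16 with S (33) and 0.23 with L (29). The US median was 0.09 without US day 28 replicate 3 and 0.58 without US day 28 replicate 2. The S median was 0.30 without D day 28 replicate 3, and the L median was 0.13 and 0.10 without D day 28 replicates 1 and 2. By edgeR's adjusted p 0 members were called, where 0.0237%, 0.237% and 2.15% of all genes were. At an unadjusted p, 4, 2 and 1 members were below 0.05 with US, S and L, against 6.02%, 9.87% and 16.7% of all genes, a share of the members above the background with US and below it with S and L. DESeq2 and limma called 0 in each, with 4, 2 and 1 and with 1, 1 and 1 at an unadjusted p.

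With US the granule and effector genes had the highest role medians (0.67 and 0.63), with 1 library far above the other US libraries. Gzma was at 58.7, 41.5 and 44.9 CPM in D and 50.4, 44.7 and 139.0 with US, so that 2 US libraries lay within the D range and the third was far above it. Gzmb, the gene of granzyme B, was at 8.59, 9.06 and 11.0 CPM in D and 6.83, 8.85 and 32.0 with US, and Prf1 at 11.7, 10.8 and 13.6 and 13.0, 12.4 and 30.2. Ifng, the gene of interferon gamma (chr10:118441047-118445892, plus strand), was at 0.492, 0.399 and 1.19 CPM in D and 0.477, 0.477 and 5.12 with US. Its log2 fold change was 1.55 ± 0.63 (SE, 95% confidence interval 0.25 to 2.84, edgeR adjusted p = 0.732), and -0.54 without US day 28 replicate 3, which turns its direction. Without that library the granule and effector medians were 0.00 and 0.00, and 1 member was at an unadjusted p.

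Klrb1c (chr6:128778485-128789215, minus strand) was the member with the smallest p with US. It stood at 16.0, 11.5 and 12.3 CPM in D, 16.2, 16.8 and 33.1 with US, 19.8, 17.7 and 17.1 with S and 17.6, 18.5 and 19.2 with L, and every exposed library lay above every D library. Its log2 fold change was 0.75 ± 0.30 (SE, 95% confidence interval 0.14 to 1.36, edgeR adjusted p = 0.712) with US, 0.45 ± 0.30 (SE, edgeR adjusted p = 0.644) with S and 0.45 ± 0.30 (SE, edgeR adjusted p = 0.440) with L. In US day 28 replicate 3 the interferon-induced chemokine genes Cxcl9 and Cxcl10 were also high: Cxcl9 was at 1.48, 1.52 and 63.1 CPM and Cxcl10 at 3.44, 2.65 and 38.1 CPM in the 3 US libraries. B and plasma cell and neutrophil scores of that library were -0.10 and -0.09, near the mean of all libraries. Its monocyte and macrophage score was 0.44 and its score of T cell receptor signalling genes outside the members 0.62, each the highest of the 36 libraries.

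With S the coreceptor genes Cd8a and Cd8b1 had 2 of the 3 highest log2 fold changes. Cd8a was at 6.57, 7.75 and 8.30 CPM in D, 10.8, 8.85 and 12.6 with US, 11.5, 11.4 and 11.0 with S and 8.03, 10.3 and 11.7 with L. All US and S libraries were above D, and 1 L library fell within its range. The log2 fold change of Cd8a was 0.58 ± 0.24 (SE, 95% confidence interval 0.08 to 1.08, edgeR adjusted p = 0.416) with S, 0.52 ± 0.24 (SE, edgeR adjusted p = 0.801) with US and 0.37 ± 0.25 (SE, edgeR adjusted p = 0.435) with L. Icos was lower than D in all 3 S libraries, at 4.81, 3.87 and 6.37 CPM in D and 3.45, 3.76 and 3.24 with S, a log2 fold change of -0.54 ± 0.25 (SE, 95% confidence interval -1.04 to -0.03, edgeR adjusted p = 0.467). With L it was at 3.80, 4.07 and 3.44 CPM, which overlapped D, a log2 fold change of -0.44 ± 0.25 (SE, edgeR adjusted p = 0.358).

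Il7r was the member with the smallest p with L. It was at 20.4, 16.0 and 32.5 CPM in D, 20.1, 21.2 and 22.6 with US, 22.3, 24.5 and 25.9 with S and 42.9, 26.95 and 39.7 with L. L replicates 1 and 3 lay above all other libraries of the day, and L replicate 2 overlapped D replicate 3. Its log2 fold change with L was 0.64 ± 0.20 (SE, 95% confidence interval 0.23 to 1.06, edgeR adjusted p = 0.0942). It was called without D day 28 replicate 3 (0.98, edgeR adjusted p = 0.00940) and without L day 28 replicate 2 (0.83, edgeR adjusted p = 0.0293). Without any other single library of D or L it was not called. The edgeR adjusted p then ran from 0.258 (without D day 28 replicate 1) to 0.355 (without D day 28 replicate 2).

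Other marker lists differed in the day 28 contrasts. Of 4 tested gamma-delta T cell markers, 3 were lower by edgeR's adjusted p with L, and none was positive with any size, and their sum was 52.8 to 121.9 TPM in D, 49.8 to 59.4 with US, 35.8 to 53.3 with S and 45.2 to 52.1 with L, the upper D value being that of the third library. Without D day 28 replicate 3 none of the 4 was called with L (Trdc -0.30, edgeR adjusted p = 0.686), and their median log2 fold change went from -1.72 to -0.39. Leaving out L day 28 replicate 1 or 3 also ended the 3 calls. Cd3g, which gamma-delta T cells carry as well, was at 13.4, 12.9 and 27.8 CPM in D, highest in that library. Of 8 B and plasma cell markers, 8 were positive with L and 1 was called (Jchain, 1.60 ± 0.39 SE, edgeR adjusted p = 0.0244), with sums of 214 to 302 TPM in D and 343 to 459 with L. Jchain was called without L day 28 replicate 2 and not without any other 1 of the 6 libraries (1.21 to 1.77). The clock genes were called in 4 of 5 with L. The part of each in the members' values was not tested.

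**Figure D4:**
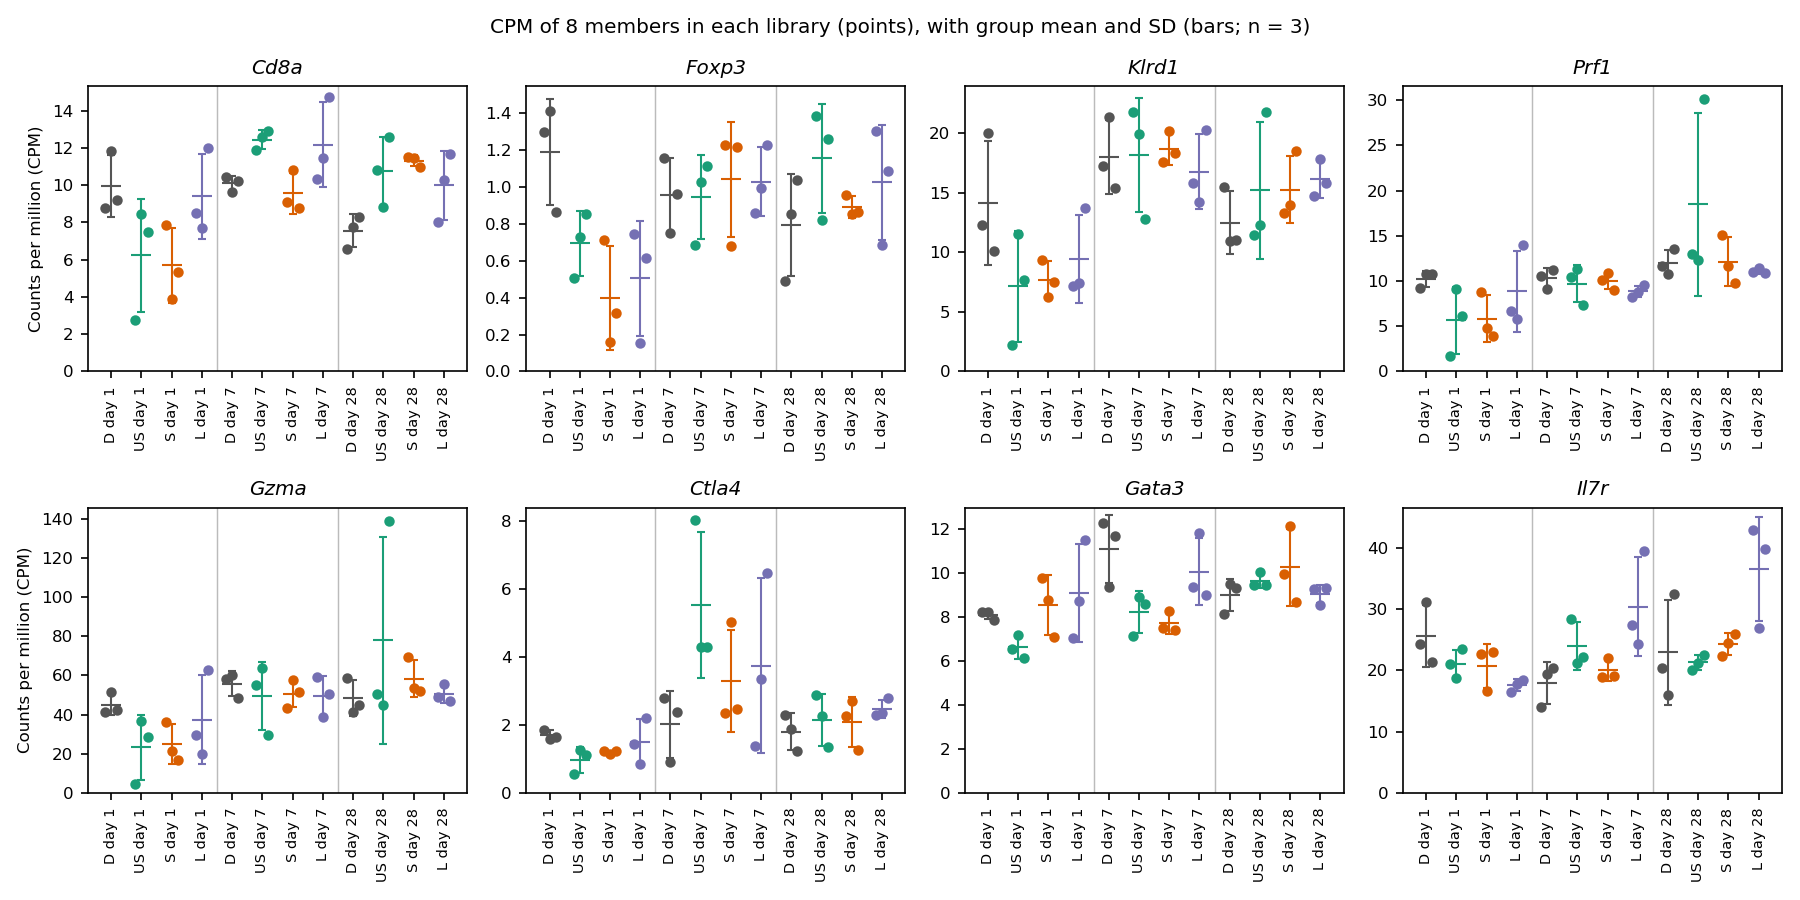
CPM per library (points) with the mean ± SD of 3 libraries for Cd8a, Foxp3, Klrd1, Prf1, Gzma, Ctla4, Gata3 and Il7r in the 12 groups. Gzma and Prf1 have their largest SD in US at day 28, followed by L at day 1, Ctla4 is highest in US at day 7, and Il7r is highest in L at day 28 (42.9, 26.95 and 39.7 CPM).

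The related lists were read at day 28 as well. All 17 other NK and cytotoxic genes had a positive fold change with US (median 0.51, 1 at an unadjusted p). Their score was 0.00, 0.00 and 1.29 in the 3 US libraries and 0.19, -0.22 and 0.09 in D, and without US day 28 replicate 3 the median was -0.04 with 7 of 17 positive. With S and L 12 and 13 of them were positive (medians 0.16 and 0.11). Of the 18 other T cell receptor signalling genes, 15 were positive with US (median 0.18, 4 at an unadjusted p), 11 with S (0.16) and 11 with L (0.05). Without US day 28 replicate 3 the US median of these was 0.06, and without D day 28 replicate 3 the medians were 0.44, 0.32 and 0.33 with US, S and L. The only gene called against D in the lists of lymphocyte chemokines, cytokines and checkpoint receptors was Cxcr6, a chemokine receptor of resident T cells, which was lower with L at day 28 (-1.30 ± 0.35 SE, edgeR adjusted p = 0.0481). It was at 11.1, 10.7 and 43.6 CPM in D and 8.70, 9.58 and 8.94 with L, the third D library being the one with high Trdc. Without that library its log2 fold change was -0.29 and it was not called, and leaving out any 1 L library also ended the call.

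Set against each other on the same day, the sizes differed in no member by edgeR's adjusted p. At day 1, 0 members were called for S against US, L against US and L against S, where 0.0177%, 0% and 0% of all genes were. At day 7 it was 0 in each, against 0.142%, 0.00592% and 0.154%, and at day 28 again 0, against 0%, 0.515% and 0.0651%. At an unadjusted p under 0.05 there were 1, 2 and 2 members at day 1 (all genes 13.7%, 6.27% and 10.4%), 1, 0 and 2 at day 7 (13.2%, 15% and 6.69%) and 1, 4 and 1 at day 28 (5.44%, 11.3% and 3.76%). DESeq2 called 1 member, for L against US at day 28, and limma 0 in all 9.

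Il7r had the smallest p for L against US at day 28. At day 28 its 3 L libraries lay above all US and S libraries, with log2 fold changes of 0.74 ± 0.20 (SE, 95% confidence interval 0.33 to 1.15, edgeR adjusted p = 0.0974) against US and 0.58 ± 0.20 (SE, edgeR adjusted p = 0.843) against S. Leaving out L day 28 replicate 2 left 1 called member for L against US. At day 7, where US was at 28.3, 21.2 and 22.2 and S at 19.0, 21.9 and 19.0 CPM, L was above S in every library (0.62 ± 0.20 SE, edgeR adjusted p = 0.426). At day 1 the smallest p values were those of Cd8a in L against S (0.72 ± 0.25 SE, edgeR adjusted p = 0.457) and Gata3 in L against US (0.43 ± 0.16 SE, edgeR adjusted p = 0.599). For the day 1 granule genes, which lay lower with US than with L in the median, Gzma had a log2 fold change of 0.68 ± 0.45 (SE, 95% confidence interval -0.23 to 1.60, edgeR adjusted p = 0.909) for L against US, an interval that includes 0.

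In the carrier controls themselves no member passed the test between days. Day 7 against day 1, day 28 against day 1 and day 28 against day 7 each had 0 called members by edgeR's adjusted p, where 0%, 0.0769% and 15.6% of all genes were called, and 2, 1 and 0 members were below an unadjusted p of 0.05 (24.2%, 5.4% and 34.9% of all genes). DESeq2 and limma also called 0, and a fit of only the D groups of days 28 and 7 called 2. The smallest p values belonged to Icos at day 28 against 1 (0.64 ± 0.25 SE, edgeR adjusted p = 0.721), and to Gata3 and Il7r at day 7 against 1 (0.47 ± 0.16 SE, edgeR adjusted p = 0.137 and -0.49 ± 0.21 SE, edgeR adjusted p = 0.155). Day cannot be told apart from age or sampling date here.

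The median difference from D was below 0 at day 1 and above 0 at day 28 with each size, and the change of each gene's difference was tested as an interaction, the effect at day 28 minus that at day 1. With US all 39 members had a positive interaction (median 0.94 on the log2 scale), with S 38 (median 0.72) and with L 34 (median 0.33), beside medians over all genes of 0.01, 0.03 and 0.00. The US median was 0.57 without US day 1 replicate 1, and the L median was 0.20 and 0.74 without L day 1 replicates 2 and 3. No member passed the adjusted threshold, where 0.0473%, 0.195% and 0.243% of all genes did. At an unadjusted p, 19 members were higher with US (48.7%, against 5.21% of all genes), 9 with S (23.1% against 9.77%) and 3 with L (against 4.96%). DESeq2 called 0, 1 and 1 member with US, S and L, with 20, 10 and 4 at an unadjusted p, and limma 0, with 18, 6 and 2.

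By role the interaction with US was largest for the granule genes (median 1.48, 4 of 4 at an unadjusted p), then the effector genes (1.24, 2 of 5) and NK receptors (1.20, 5 of 5). It was 0.89 for surface genes (3 of 6), 0.78 for costimulation (2 of 5), 0.69 for signalling (1 of 4), 0.62 for the CD3 chains (1 of 4) and 0.51 for T lineage genes (1 of 6). Without US day 1 replicate 1 the medians of the granule, effector and NK receptor genes were 1.06, 0.91 and 0.81, and those of the CD3 chains and signalling genes 0.31 and 0.32. Without US day 28 replicate 3 they were 0.90, 0.72, 0.64, 0.37 and 0.44 in the same order. Klrb1c, Cd8a and Klrk1, the NK and T cell activating receptor NKG2D, had interactions of 1.38 ± 0.43 (SE, edgeR adjusted p = 0.252), 1.14 ± 0.35 (SE, edgeR adjusted p = 0.252) and 1.11 ± 0.35 (SE, edgeR adjusted p = 0.259) with US. Cd8a had 1.33 ± 0.35 (SE, edgeR adjusted p = 0.0923) with S, and Il7r had 1.14 ± 0.29 (SE, edgeR adjusted p = 0.102) with L. The count at an unadjusted p with US was 6 without US day 1 replicate 1 and 6 without US day 28 replicate 3, the libraries at the 2 ends of the members' scores. It was 12 without D day 1 replicate 2 and 31 without US day 1 replicate 2. Without S day 1 replicate 1, 3 members were called with S and 24 were at an unadjusted p, and a fit of only the compared S and D groups called 9. With L 1 member was called without L day 1 replicate 3, without D day 28 replicate 3 or without L day 28 replicate 2.

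For day 7 minus day 1 the interactions also had 0 calls, where 0.136%, 0% and 0% of all genes were called with US, S and L, and 8, 1 and 2 members were higher at an unadjusted p (all genes 6.16%, 4.8% and 1.65%). Ctla4 had the smallest p with US (2.18 ± 0.65 SE, edgeR adjusted p = 0.130), Gata3 with S (-0.70 ± 0.22 SE, edgeR adjusted p = 0.355) and Il7r with L (1.22 ± 0.29 SE, edgeR adjusted p = 0.462). DESeq2 and limma called 0 in each.

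Comparisons between days within a size were added after the values had been seen, and only there did members pass the test, all of them higher than at day 1. Against day 1, US had 5 called members at day 7 (12.8% of the members, 7.18% of all genes) and 8 at day 28 (20.5%, 1.75%). S had 11 at day 7 (28.2%, beside 41.4% of all genes) and 4 at day 28 (10.3%, 9.4%). L had 1 at day 7 (2.56%, 11.2%) and 1 at day 28 (2.56%, 1.12%). The shares of all genes here count changes in either direction, whereas the called members were all higher, so the shares are not alike in direction. Between days 28 and 7 there were 0 in US, S and L, where 0.887%, 0.426% and 0% of all genes were called, and 5, 1 and 0 members at an unadjusted p (13.2%, 16.7% and 7.55% of all genes). Without US day 28 replicate 2, 1 was called in US. Day, age and sampling date cannot be told apart in these contrasts, and D had no call over the same days. Whether a size's change differed from that of D is the interaction above.

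In US lungs 38 of the 39 members had a positive log2 change from day 1 to day 28 (median 0.89, beside 0.01 over all genes). The 8 called members were mostly those of the granule and of NK receptors. Prf1 rose by 1.69 ± 0.37 (SE, edgeR adjusted p = 0.0199) on the log2 scale, from 5.68 ± 3.70 to 18.5 ± 10.1 CPM (mean ± SD), Gzmb by 1.72 ± 0.44 (SE, edgeR adjusted p = 0.0416) and Gzma by 1.72 ± 0.45 (SE, edgeR adjusted p = 0.0456). Among NK receptors Klrk1 rose by 1.10 ± 0.25 (SE, edgeR adjusted p = 0.0228), Ncr1 (NKp46, an activating receptor of NK cells) by 1.41 ± 0.35 (SE, edgeR adjusted p = 0.0399) and Klrb1c by 1.19 ± 0.30 (SE, edgeR adjusted p = 0.0416). Ccl5 rose by 1.39 ± 0.37 (SE, edgeR adjusted p = 0.0480) and Icos by 0.94 ± 0.25 (SE, edgeR adjusted p = 0.0496). Leaving out US day 1 replicate 1 or US day 28 replicate 3 left 0 calls, leaving out US day 1 replicate 3 left 4, US day 28 replicate 1 left 5, and US day 28 replicate 2 or US day 1 replicate 2 gave 11 and 26. A fit of the US groups of both days alone called 0, DESeq2 15 and limma 1.

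From day 1 to day 7, 5 members passed in US lungs, Ctla4 and Icos from the costimulatory group among them. Ctla4 rose by 2.45 ± 0.46 (SE, edgeR adjusted p = 0.00348), from 0.969 ± 0.368 to 5.53 ± 2.15 CPM, and Icos by 1.09 ± 0.25 (SE, edgeR adjusted p = 0.0126). Klrd1, Cd8a and Cd27 rose by 1.29 ± 0.34 (SE, edgeR adjusted p = 0.0221), 0.94 ± 0.25 (SE, edgeR adjusted p = 0.0217) and 0.74 ± 0.22 (SE, edgeR adjusted p = 0.0372). The count was 1 without US day 1 replicate 1, 18 without US day 1 replicate 2, 3 without US day 1 replicate 3 and 2 without US day 7 replicate 1 or 2. Fitted on the groups compared alone, it was 0.

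In S lungs the members that passed at both days were Cd8a (0.67 ± 0.25 SE, edgeR adjusted p = 0.0312 at day 7 and 0.94 ± 0.25 SE, edgeR adjusted p = 0.0248 at day 28), Cd27 (0.61 ± 0.22 and 0.77 ± 0.22) and Ccl5 (1.29 ± 0.38 and 1.20 ± 0.38). Cd8b1, the beta chain of the CD8 coreceptor, passed at day 28 (0.91 ± 0.29 SE, edgeR adjusted p = 0.0494). At day 7 the others were Klrd1, the lymph node homing receptor gene Ccr7, Zap70, Ctla4, the chemokine gene Xcl1, Icos, Foxp3 and Lat, with log2 changes from 0.75 (Icos) to 1.41 (Ctla4). Foxp3 rose by 1.21 ± 0.42 (SE, edgeR adjusted p = 0.0238), from 14, 3 and 6 counts to 24, 55 and 27 counts, the second S library of day 7 being the deep one. At day 7 the count of members was 25 without S day 1 replicate 1, and 3, 4 and 4 without S day 1 replicate 2, S day 1 replicate 3 and S day 7 replicate 2. At day 28 it was 24 without S day 1 replicate 1 and 0 without any 1 of the other 5 libraries.

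In L lungs Il7r alone passed, at both days. It rose from 16.5, 17.8 and 18.4 CPM at day 1 to 27.4, 24.3 and 39.4 at day 7 (0.73 ± 0.20 SE, edgeR adjusted p = 0.0305) and 42.9, 26.95 and 39.7 at day 28 (1.00 ± 0.20 SE, edgeR adjusted p = 0.0116), with no overlap between day 1 and the later days. D was at 24.3, 31.1 and 21.3 CPM at day 1 and 14.0, 19.4 and 20.4 at day 7. Without L day 1 replicate 3, 18 members were called at day 7 and 7 at day 28, and without L day 1 replicate 1 or 2, or L replicate 1 or 3 of the later day, 0 were.

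Markers of other cells were called in the same within-size comparisons. In S, 5 of 8 B and plasma cell markers were higher at day 7 than at day 1 and 4 of 8 at day 28, with sums of 139.4 to 261, 259 to 329 and 303 to 385 TPM at days 1, 7 and 28. In US, 2 of 7 neutrophil markers were lower at day 7 and 2 of 7 at day 28 than at day 1. Of 4 tested thymus markers, Rag1 was higher in US at day 7, at 0, 0.156 and 0.101 CPM at day 1 and 0.687, 0.229 and 4.66 at day 7, and Dntt in S at day 28, at 0.408, 0.217 and 0.159 and 1.87, 1.10 and 0.867 CPM. The part of these markers in the members' values was not tested.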

How the data were processed

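Lung mRNA of 36 libraries (12 groups of 3) was analysed, grouped by the sample titles; all 36 columns of the count table matched a title. The authors deposited whole read counts per Ensembl gene and, per the file headers, TPM, FPKM and coverage, which is a signal along the gene, for each library. Per the submitters' processing notes, the tools were STAR 2.5.1b, featureCounts 1.5.1, StringTie 1.3.3, bcl2fastq 2.19.1.403 and CASAVA, with no roles given, and the builds were GRCh37 and GRCm38. The gene positions in the deposited tables are those of GRCm38. The libraries were made with a stranded kit per the labels' protocols, but neither the annotation release nor the strand used in counting is stated (not given in the sources used here). Overlapping and antisense genes may therefore share reads. Of the deposited values, FPKM and coverage were not used, and TPM served for levels between genes and in an alternative. Material marked MWCNT and a day 90, named in the protocols, were not analysed here.

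Genes were filtered with filterByExpr over the 12 groups (16903 kept) and scaled by TMM (factors 0.932 to 1.06). All 36 libraries were fitted together in edgeR 4.0.16 (R 4.3.3) with 1 coefficient for each group, and compared by the two-sided quasi-likelihood F test with Benjamini-Hochberg adjustment over all genes tested. CPM printed for single genes is the count per library total without TMM. Intervals are 95% intervals from the t distribution and cover the spread between libraries. Scores used log2 CPM with a prior count of 2. In each comparison with D the 2 members with the smallest p, every called member and the member with the highest mean TPM in each role are given in full; other members are named as examples chosen after their values were seen. The members and lists were chosen with earlier results of these data known. The 9 comparisons between days within a size were added after seeing the data to the 27 others.

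Alternative settings were RLE scaling, a fit without the filter, a block for the replicate number, the compared groups fitted alone, DESeq2 1.42.0, limma 3.58.1 on log2(TPM + 1) where the mean TPM reached 1, and omission of single libraries. Omission was extended to the other gene lists and to the roles after seeing the data. The fits were tested on simulated data. No pair of libraries within a group agreed within sampling noise (chi-square per degree of freedom at least 6.16), so none was counted as a duplicate.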

Additional observations from a re-analysis of the deposited data

How the results depend on the processing

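With 3 libraries per group, single libraries set most counts of called members. Leaving out 1 library at a time, the count ranged from 0 to 1 for US against D at day 1, 0 to 3 for S against D at day 1, 0 to 2 for US against D at day 7, 0 to 1 for L against D and for L against US at day 28, and 0 to 3 and 0 to 1 for the interactions of S and L between days 28 and 1. Within US it ranged from 1 to 18 (day 7 against 1), 0 to 26 (day 28 against 1) and 0 to 1 (day 28 against 7), within S from 3 to 25 (day 7 against 1) and 0 to 24 (day 28 against 1), and within L from 0 to 18 (day 7 against 1) and 0 to 7 (day 28 against 1). The log2 fold change of Ifng for US against D at day 28 ranged from -0.54 without US day 28 replicate 3 to 2.20 without D day 28 replicate 3, around the 1.55 with all libraries.

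With only the compared groups in the fit, the count was 2 for D day 28 against 7, 2 for S against D at day 1 and 9 for the S interaction of day 28. In that fit it was 17 for S day 7 and 17 for S day 28 against day 1, and 0 for US day 7, US day 28, L day 7 and L day 28 against day 1. DESeq2 called 1 member for US against D and 1 for S against D at day 7, 1 for L against US at day 28, and 1 each for the S and L interactions of day 28, and it called 15 for US day 28, 14 for S day 28 and 3 for L day 7 against day 1. Limma on TPM called 5 for S day 7, 1 for US day 28 and 0 for S day 28, L day 7 and L day 28 against day 1. Without a filter 1 was called for US against D at day 7 (Ctla4). Of the 36 counts, 42 of 252 values with a library left out and 25 of 216 under other alternatives moved by over 1.5 times or between 0 and another value. Counts that stayed at 0 are among those taken as not moved, so these shares do not describe the counts above 0 alone.

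Replicate numbers do not name a shared animal or day in the labels. Of 198 pairs of same-numbered libraries, 46 had deviations correlated over 0.1, and 9 of 36 libraries correlated best with their own number. The median correlation was 0.00023 between libraries of the same number and 0.0023 between those of other numbers. These correlations cannot show whether some same-numbered libraries share a batch or date. With the replicate block, 2 members were called for S day 28 and 2 for US day 28 against day 1, and no other count moved by over 1.5 times. A level of 1 CPM stands for about 16.2 counts in the shallowest library. Foxp3 went down to 3 counts in a library, Ifng to 2 and Xcl1 to 6, which limits their precision.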
